A study of Homo sapiens with 2 samples.

Results

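The mRNAs of the proteasome were examined in RNA co-precipitated from T47D cells with an antibody to IMP1 or with normal IgG. Members were taken by gene name, as every gene named PSMA to PSMG followed by a number. The rule matched 54 of the 18781 genes in the deposited table. Of these, 47 were proteasome genes sorted into 8 classes, 2 were second entries of PSMA1 and PSMA2 under another identifier, and 5 were antisense genes, a pseudogene or an unrelated gene that shares the prefix.

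T47D is an established luminal, estrogen receptor-positive breast cancer cell line, and IMP1 is an RNA-binding protein that attaches to target mRNAs and affects their localization, stability and translation. Both libraries were labelled as T47D cells of WT genotype, cultured alike in serum-containing DMEM. Cell lysates were incubated with protein A beads carrying either the anti-IMP1 antibody (the IMP1 precipitate) or normal IgG (the IgG precipitate), the beads were washed, and the co-precipitated RNA was extracted with TRIzol and sequenced. There was 1 library per group and neither library was of unprecipitated RNA. The values below therefore compare 2 libraries, with no replicate check, no error and no test, and a ratio mixes what the antibody retained with whatever else differed between the preparations.

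The proteasome is the protease that degrades ubiquitin-tagged proteins. Its barrel-shaped core particle is built of outer alpha rings and inner beta rings, and the beta subunits PSMB5, PSMB6 and PSMB7 carry the proteolytic sites. A regulatory particle, made of an ATP-driven base and a lid, recognizes, unfolds and feeds in substrates. In cells exposed to interferon, PSMB8, PSMB9 and PSMB10 replace the standard catalytic subunits to form the immunoproteasome, which shapes peptides for antigen presentation.

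The libraries differed well beyond the proteasome. Summed over all genes, FPKM (fragments per kilobase of transcript scaled to the number of mapped fragments) came to 353885 in the IMP1 precipitate and 1298363 in the IgG precipitate, and 1548 and 7498 genes were listed at 0. Among genes at 1 FPKM or more in both precipitates, the median log2 ratio, IMP1 over IgG and computed with 0.1 added to each value, was -0.78. Setting that median to 0 raised ratios by 0.79 on the log2 scale, setting equal sums raised them by 1.88, and setting equal sums without the 50 highest genes raised them by 0.57. The luminal markers were present in both libraries in 13 of 15 cases and summed to 1350 FPKM in the IMP1 precipitate and 640 in the IgG precipitate, but TFF3 and TFF1 were listed at 0 with IgG. Mesenchymal markers summed to 5.77 FPKM in the IMP1 precipitate and 243 in the IgG precipitate over the 14 of 15 in the table. Blood cell markers summed to 7.87 and 333 FPKM over 7 of 10, and CD74, the class II invariant chain, made up most of the latter with 305. The library labelled IgG control thus held markers of cell types that its label does not name, and with 1 library of each kind no result could be given without it. In lysate RNA of this kind, fewer cells of a type and less RNA per cell cannot be told apart.

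The proteasome mRNAs were readily detected, at 15.6 FPKM for the median member in the IMP1 precipitate and 26.1 in the IgG precipitate. A value of 1 FPKM or more in both precipitates was found for 91.5% of the members and for 36.8% of all genes. Summed, the members reached 941 FPKM in the IMP1 precipitate and 1501 in the IgG precipitate, which was 0.266% and 0.116% of the summed FPKM of each library. The summed level was thus lower, and its share of the library higher, in the IMP1 precipitate.

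As deposited, 7 of the 47 members exceeded IgG by 2-fold or more in the IMP1 precipitate, 21 were lower by 2-fold or more and 19 lay between. Over all 18781 genes, 39.9% were at least 2-fold higher and 29.9% at least 2-fold lower, but many of those genes were listed at 0 in 1 library. Among the 6909 genes at 1 FPKM or more in both precipitates, 11.5% were higher and 44.0% lower, and the 43 members that met this bound had 5 higher (11.6%) and 19 lower (44.2%). Their median log2 ratio was -0.69, beside -0.78 for those genes. At a bound of 10 FPKM in both precipitates, 2 of 31 members were higher (6.45%) and 12 lower (38.7%), beside 9.58% and 31.6% of 1628 genes. The median log2 ratio at that bound was -0.13 for the members and -0.46 for the genes. The shares for the proteasome as a whole were thus near those of other genes of like level, and they are no result about the proteasome as a group. On the median scale the members split into 12 higher and 11 lower, with a median log2 ratio of 0.11. Those at 1 FPKM or more in both precipitates had 23.3% higher and 20.9% lower there, beside 25.0% and 24.9% of all genes at that level. On the equal-sum scale the split was 25 and 2, with a median of 1.19, and the shares were 53.5% and 2.33% beside 51.6% and 7.96%. Setting equal sums without the 50 highest genes gave 8 higher and 14 lower, with a median of -0.12, and 6 and 12 of the 43 (27.9% lower) beside 20.1% and 29.4%. The members thus moved with the scale much as other genes did.

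The classes, however, did not sit at 1 level. Measured from the median of -0.78, 5 of 7 core alpha genes, 5 of 8 lid genes, 3 of 4 activators and all 3 immunoproteasome genes lay below it, while 7 of 8 core beta genes and 6 of 7 assembly chaperones lay above it. Over all members, 22 lay below and 25 above. Against the median of -0.46 for genes at 10 FPKM or more in both precipitates, PSMB4 (-0.69) and PSMG3 (-0.75) would also lie below. Across the 45 members above 0 in both libraries, levels went together with Pearson's r of 0.51 for log2 FPKM and Spearman's rho of 0.58, beside 0.66 and 0.55 for the 6909 genes. These describe genes that share the same 2 libraries.

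**Figure D1:**
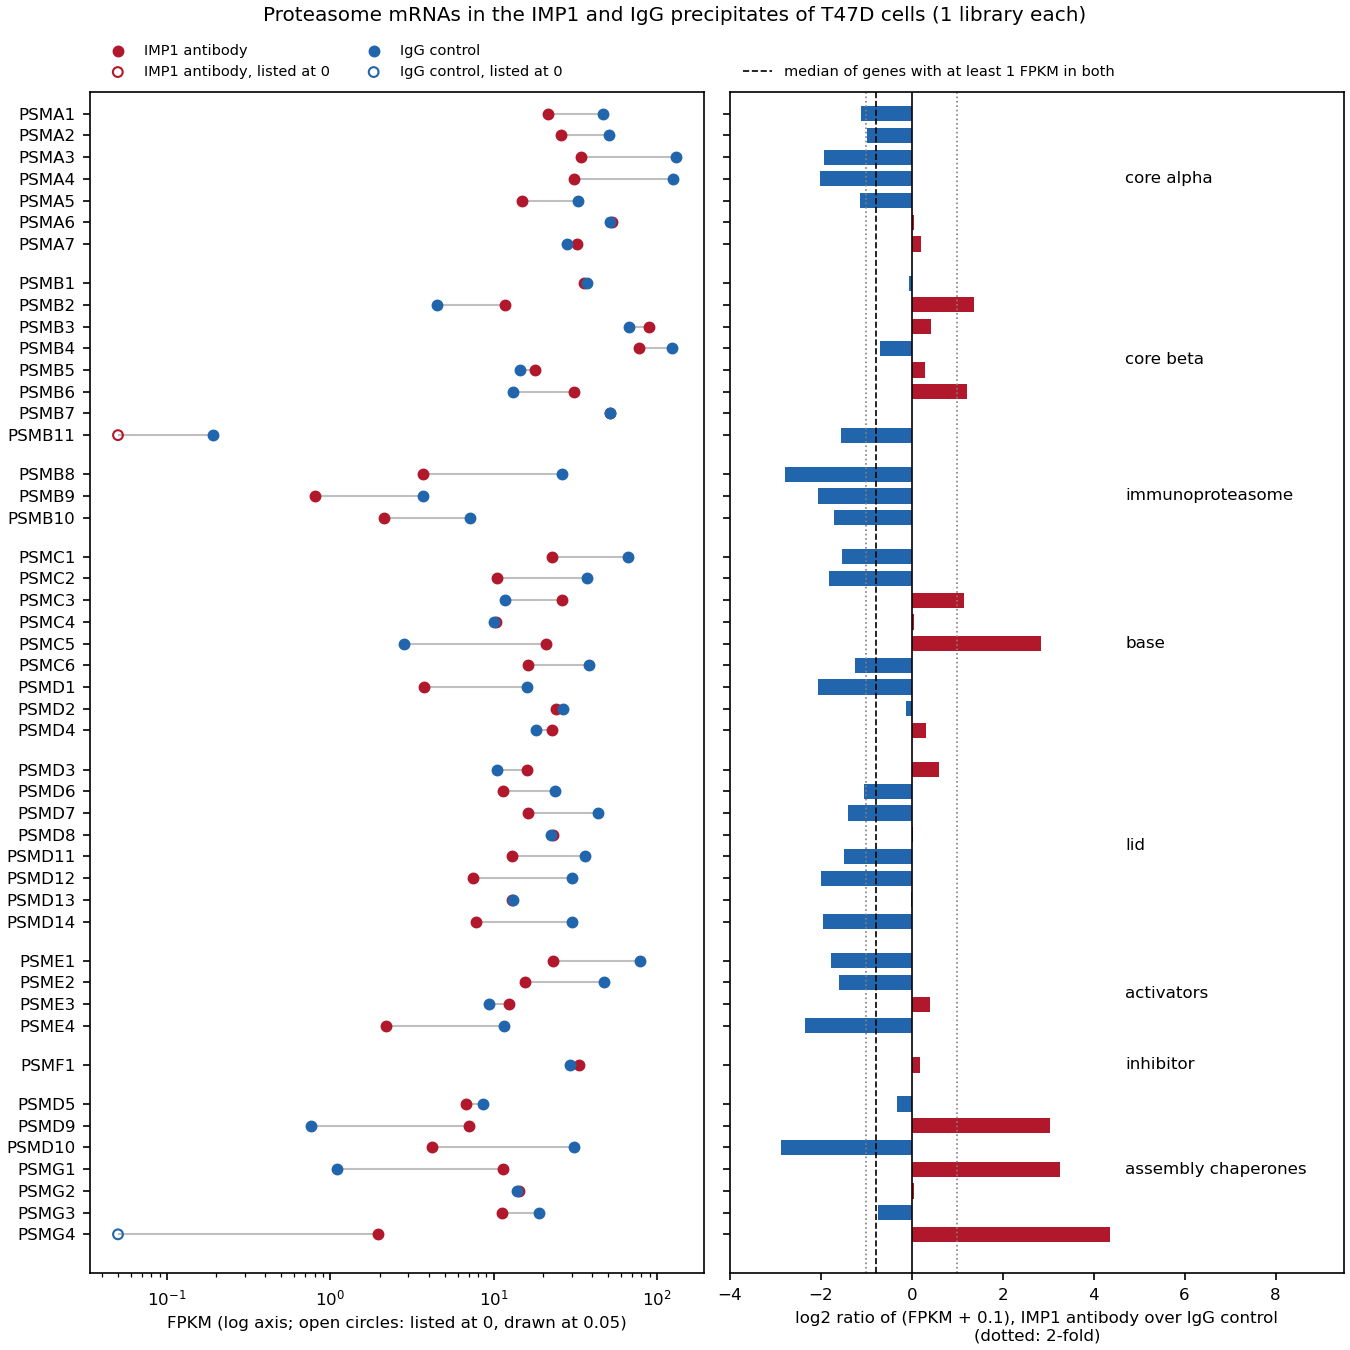
FPKM of each of the 47 proteasome genes in the IMP1 and IgG precipitates (left, log axis, open circles for values listed at 0) and the log2 ratio of FPKM + 0.1, IMP1 over IgG (right, dotted lines at 2-fold, dashed line at the median of genes at 1 FPKM or more in both precipitates, -0.78), 1 library each and without error bars. On the deposited scale PSMG4 (4.36) stands furthest to the right, through a value listed at 0 with IgG. PSMG1 (3.27), PSMD9 (3.05) and PSMC5 (2.84) follow, and PSMD10 (-2.87) and PSMB8 (-2.80) stand to the left. The other scales would move the ratios of genes well above 0.1 FPKM to the right by nearly the same amount, up to 1.88 for equal sums.

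The alpha subunits, which form the outer rings and the gate of the core particle, were lower in sum in the IMP1 precipitate, at 212 FPKM against 466, with a median log2 ratio of -1.11 that became -0.32 on the median scale and 0.76 on the equal-sum scale. PSMA4 had 30.8 FPKM in the IMP1 precipitate and 126 in the IgG precipitate (log2 ratio -2.03). PSMA3 was close to it, at 34.3 and 131 FPKM (-1.93). These were the highest core values of the IgG precipitate, and in the IMP1 precipitate both lay within the range of the other alpha mRNAs. PSMA1 had 21.6 and 46.7 FPKM (-1.11), and PSMA5 had 14.9 and 32.8 FPKM (-1.14). PSMA2 fell just short of 2-fold, at 25.8 and 51.0 FPKM (-0.98). PSMA6 was at nearly the same value in both, at 52.9 and 51.1 FPKM (0.05), as was PSMA7, at 32.3 and 28.0 FPKM (0.21). The 7 alpha mRNAs thus divided into 5 that were lower and 2 that were level on the deposited scale, and the gap between these sets does not depend on the scale. The second entry of PSMA1 had 0.499 FPKM in the IMP1 precipitate and was listed at 0 with IgG, and that of PSMA2 had 3.51 and 2.05 FPKM, so neither would move its gene by much.

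The standard beta subunits, which line the proteolytic chamber, were on balance level, at 314 FPKM in sum in the IMP1 precipitate and 312 in the IgG precipitate, with a median log2 ratio of 0.15 that stayed above 0 on each other scale (0.94, 2.02 and 0.72). Among the catalytic subunits, PSMB6, which cleaves after acidic residues, had 30.9 FPKM against 13.2 (1.23). PSMB5, the chymotrypsin-like subunit, had 17.9 and 14.5 FPKM (0.30). PSMB7, the trypsin-like subunit, had 51.4 and 51.5 FPKM (-0.00). None of the catalytic mRNAs was appreciably lower in the IMP1 precipitate as deposited, unlike most alpha mRNAs. Of the non-catalytic subunits, PSMB2 was more than 2-fold higher in the IMP1 precipitate, at 11.8 and 4.52 FPKM (1.36). PSMB3 had 89.7 and 67.1 FPKM (0.42), the highest member of the IMP1 precipitate. PSMB1 was level at 35.6 and 37.0 FPKM (-0.05), and PSMB4 was the lowest ratio of the group among the expressed genes, at 76.9 and 124 FPKM (-0.69). PSMB11, the thymus-specific catalytic subunit, was listed at 0 in the IMP1 precipitate and at 0.192 FPKM in the IgG precipitate. Both values are near 0, and the size of its log2 ratio (-1.55) depends on the value added before taking logs.

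Alpha and beta subunits enter the core particle in equal numbers, yet their summed mRNA levels stood in different ratios in the libraries. Core alpha over core beta was 0.676 in the IMP1 precipitate and 1.49 in the IgG precipitate, a 2.21-fold gap that does not depend on how the libraries are scaled. As shares of all proteasome FPKM, the alpha genes took 22.6% in the IMP1 precipitate and 31.0% in the IgG precipitate, and the beta genes 33.4% and 20.8%. The core particle over the regulatory particle was at nearly the same ratio in both, 1.99 and 1.78.

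The immunoproteasome mRNAs were the lowest class in the IMP1 precipitate relative to IgG. All 3 were more than 2-fold lower, with a median log2 ratio of -2.06 that was -1.34, -0.31 and -1.54 on the median, equal-sum and reduced-sum scales. PSMB8, which takes the place of PSMB5, had 3.67 FPKM in the IMP1 precipitate and 26.1 in the IgG precipitate (-2.80). PSMB9, which takes the place of PSMB6, had 0.801 and 3.66 FPKM (-2.06). PSMB10, which takes the place of PSMB7, had 2.12 and 7.12 FPKM (-1.70), a direction that turned on the equal-sum scale. In sum they made up 0.701% of the proteasome FPKM in the IMP1 precipitate and 2.46% in the IgG precipitate.

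Ratios of each immunoproteasome mRNA to the standard subunit it replaces, taken within a library, are free of the scale. PSMB8 over PSMB5 was 0.205 in the IMP1 precipitate and 1.79 in the IgG precipitate, so that the inducible mRNA exceeded the standard one only with IgG. PSMB9 over PSMB6 was 0.0259 and 0.278, and PSMB10 over PSMB7 was 0.0414 and 0.138. The ratio was higher with IgG 8.74-fold for the first pair, 10.7-fold for the second and 3.34-fold for the third, and 7.07-fold for the summed genes. The second pair holds a PSMB9 value below 1 FPKM in the IMP1 precipitate. Its gap joins PSMB9, 4.57-fold higher with IgG, and PSMB6, 2.35-fold higher with IMP1. PSMB8 over PSMB9, by contrast, was 4.58 and 7.12, a much smaller gap.

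**Figure D2:**
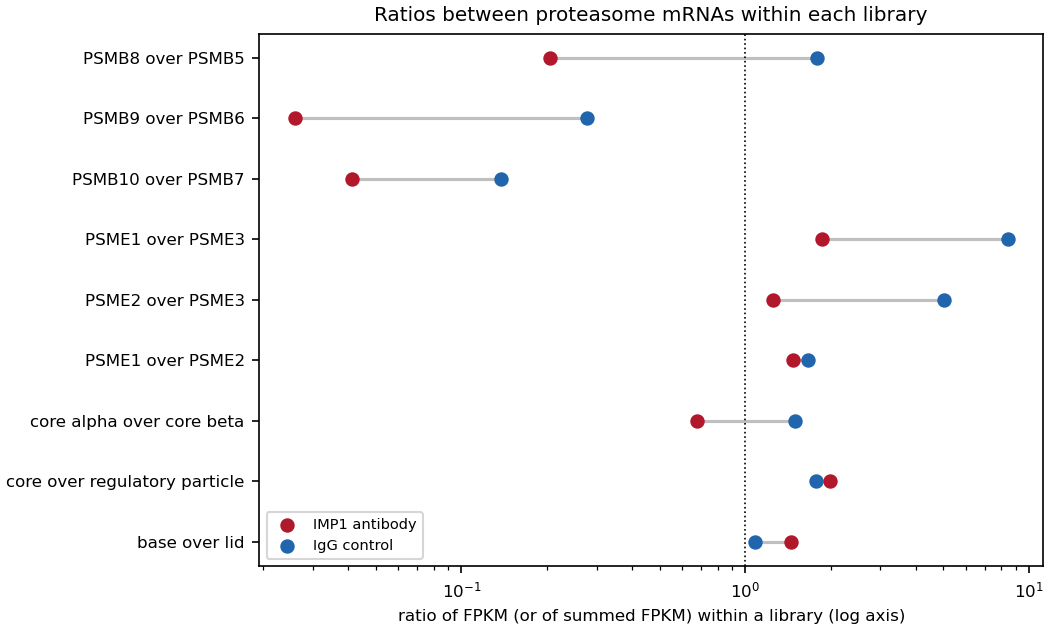
Ratios of FPKM, or of summed FPKM, between proteasome mRNAs within the IMP1 precipitate and within the IgG precipitate (log axis, 1 library each and no error bars), which do not depend on the scale between libraries. PSMB8 over PSMB5 moves from 0.205 with IMP1 to 1.79 with IgG, whereas PSME1 over PSME2 stays at 1.48 and 1.67.

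The activators cap the core particle without using ATP. PSME1 and PSME2 are the alpha and beta subunits of PA28, an interferon-inducible activator linked with antigen processing, and both were lower in the IMP1 precipitate on the deposited scale, turning slightly higher (median 0.19) on the equal-sum scale. PSME1 had 23.0 and 78.6 FPKM (-1.77), and PSME2 had 15.6 and 47.1 FPKM (-1.59). Their ratio to each other was 1.48 in the IMP1 precipitate and 1.67 in the IgG precipitate. PSME3, the nuclear PA28 gamma subunit, had 12.4 and 9.35 FPKM (0.40). Relative to PSME3, PSME1 was 4.52-fold and PSME2 4.00-fold higher with IgG, so the inducible and nuclear forms separated while the partners of the inducible form stayed together. PSME4, the large nuclear activator PA200, was lower still on the deposited scale, at 2.19 and 11.6 FPKM (-2.35). The inhibitor PSMF1 (PI31) was level, at 33.2 and 29.2 FPKM (0.18).

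The lower immunoproteasome and PA28 values stood beside a much larger gap in interferon response genes. All 16 of a list of such genes were more than 2-fold lower in the IMP1 precipitate, with 153 FPKM in sum against 2514, a median log2 ratio of -4.76 and a range from -7.65 for XAF1 to -3.15 for IFI6. RSAD2 and IFI44L, both antiviral genes, were listed at 0 in the IMP1 precipitate, and the median stayed at -4.11, -3.16 and -4.30 on the other scales. The gap of each immunoproteasome and PA28 gene was smaller than that of IFI6. The PA28 ratios (-1.77 and -1.59) were not set apart from those of standard subunits, among which PSMD1 (-2.07), PSMA4 (-2.03) and PSMD12 (-1.99) were lower. Of genes at 1 FPKM or more in both precipitates, 44.0% were at least 2-fold lower. Of the mesenchymal markers, 13 of 14 were more than 2-fold lower in the IMP1 precipitate, where DCN, LUM, ZEB2, COL1A2, SPARC and PDGFRB were listed at 0. Of the blood markers, 4 of 7 were more than 2-fold lower and 3 higher. HLA-DRA was listed at 0 in the IMP1 precipitate, and CD14 and CORO1A were listed at 0 in the IgG precipitate. The part of these other genes and cell types in the immunoproteasome result was not tested.

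Class I antigen loading genes, which receive the peptides that the proteasome makes, did not all follow. Of 11, 5 were more than 2-fold lower in the IMP1 precipitate and 1 higher, with a median log2 ratio of -0.92 that became 0.95 on the equal-sum scale. In sum they had 421 FPKM in the IMP1 precipitate and 2815 in the IgG precipitate. Most of this was B2M, the class I light chain, at 232 and 2474 FPKM (-3.41). TAP2, a subunit of the peptide transporter, had 18.8 and 1.45 FPKM (3.61). TAP1, its partner and a neighbour of PSMB9, had 10.2 and 7.90 FPKM (0.37). TAP1 is of interest here because PSMB8, PSMB9, TAP1 and the antisense gene TAPSAR1 share 1 listed locus, on chromosome 6 from 32808494 to 32827362 (hg19). In that stretch TAPSAR1 had 0.471 and 4.95 FPKM, so 3 of the 4 genes were lower in the IMP1 precipitate and TAP1 was not. The strand of the counts is not stated in the sources used here, so reads of PSMB8 and of its antisense partner cannot be told apart. B2M, TAP1 and TAPSAR1 were named after their values were seen.

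The members were chosen by name and not by promoter sequence. The motifs, though, were kept from a longer set with earlier results of these data known, so the shares below describe sequence and test nothing. RefSeq windows (GRCh38.p14) from 250 bases before to 50 after the start site were at hand for 41 of the 47 members, in 50 windows. The core letters of the interferon-stimulated response element, GAAA and GAAA with any 2 bases between them, were searched on both strands. They were found in 7 of the 50 windows (14%) and in 3.57% of all 35116 windows. The 7 genes were PSMB8, PSMB10, PSME1, PSME2, PSMA4, PSMB4 and PSMG4. The matches are shown in 30 bases each, 5′ to 3′ on the strand of the gene, with the match in capitals, which reads TTTC and TTTC where it lies on the other strand, because they set the inducible genes beside standard ones:
PSMB8: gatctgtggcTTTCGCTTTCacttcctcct
PSMB10: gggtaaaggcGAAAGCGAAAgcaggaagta
PSME1: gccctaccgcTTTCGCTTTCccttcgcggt
PSME2: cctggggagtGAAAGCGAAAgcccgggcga
PSMA4: atagtgaagaGAAAATGAAAggagagcgcc
PSMB4: tcgtctacagGAAAAAGAAAgaaatgacac
PSMG4: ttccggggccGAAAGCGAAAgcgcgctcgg

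The PSMB8 stretch lies at chr6:32844032-32844061 on the minus strand, with the match starting at -4 relative to the start site. That of PSMB10 lies at chr16:67936852-67936881 on the minus strand, with the match at -21. The PSME1 stretch is chr14:24136189-24136218 on the plus strand, with the match just inside the transcript at 6, and the PSME2 stretch is chr14:24146619-24146648 on the minus strand, with the match at -28. PSMG4 holds its match at -33 (chr6:3258904-3258933, plus strand). In PSMB4 it starts at -68 (chr1:151399495-151399524, plus strand) and in PSMA4 at -240 (chr15:78540155-78540184, plus strand). The spacer between the GAAA blocks was GC, on the strand that reads GAAA, in PSMB8, PSMB10, PSME1, PSME2 and PSMG4. On the deposited scale, 5 of these genes were at least 2-fold lower in the IMP1 precipitate, PSMB4 was within 2-fold and PSMG4 was higher. Of all 47 members 44.7% were lower, as were 44.0% of genes at 1 FPKM or more in both precipitates. Whether the letters go with the ratio was not tested. No match was found in the PSMB9 window, whose gene was also lower, so the letters and the ratios did not map onto each other 1 to 1. A match is a description of the sequence and not evidence of a working site.

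Further motifs were searched in the same way, on both strands. The STAT letters TTC and GAA with 3 bases between them stood in 14% of the members' windows and 7.66% of all windows. The core of the antioxidant response element, TGA and GC with 4 bases between them and the type of site bound by NFE2L1 and NFE2L2, stood in 62.0% and 41.8%. The ETS letters CCGGAAG stood in 28.0% and 10.3%, and the CCAAT box in 40.0% and 34.6%. In 1 window the STAT letters overlapped the antioxidant core and in 2 windows the CCAAT box did, and the interferon element overlapped none of the others. Windows of 1 gene can overlap each other, so these shares count sequence and not independent genes.

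In the regulatory particle, the base holds the ATPases PSMC1 to PSMC6, which form a ring with each present in the same number, and the scaffold or receptor subunits PSMD1, PSMD2 and PSMD4. Its 9 mRNAs had a median log2 ratio of -0.13 on the deposited scale, which turned positive on the others (0.66, 1.74 and 0.44). PSMC5 was the extreme, at 20.8 FPKM in the IMP1 precipitate and 2.81 in the IgG precipitate (2.84), and among the 905 genes within 1.5-fold of its IMP1 value 5.08% were listed at 0 with IgG. PSMC3 was also higher, at 26.1 and 11.7 FPKM (1.14). PSMC4 was level, at 10.3 and 10.0 FPKM (0.04). The other ATPases were lower on the deposited scale. PSMC2 had 10.5 and 37.2 FPKM (-1.82), PSMC1 had 22.8 and 66.4 FPKM (-1.54), and PSMC6 had 16.1 and 38.4 FPKM (-1.25). Reads of PSMC1 can be shared with the near-identical pseudogene PSMC1P1, listed at 0.586 and 2.19 FPKM, so the PSMC1 value is uncertain by an amount that is not known.

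The ATPase mRNAs therefore lay close together in the IMP1 precipitate, between 10.3 and 26.1 FPKM, and far apart in the IgG precipitate, between 2.81 and 66.4 FPKM. The SD of log2 FPKM over the 6 genes was 0.575 in the IMP1 precipitate and 1.68 in the IgG precipitate. A narrower spread with IMP1 was also found for the 7 alpha genes (0.573 and 0.871), the expressed beta genes (1.07 and 1.64), the 8 lid genes (0.546 and 0.706) and the core and regulatory particle as a whole (0.989 and 1.28), but not for the 3 non-ATPases of the base (1.52 and 0.372). Other complexes gave the same picture, with 0.520 and 1.18 for the CCT chaperonin, 0.727 and 1.63 for the COP9 signalosome and 1.28 and 1.45 for eIF3. The spread was wider with IMP1 for proteasome-associated genes (1.19 and 1.02) and for ubiquitin and its activating enzymes (3.10 and 1.91). It was also wider for interferon response genes (2.69 and 1.98) and luminal markers (2.01 and 1.34). The remaining related and marker lists were narrower with IMP1, and the activators were nearly equal. No spread over all genes is given, so whether narrowing is particular to complexes is not known. These spreads are over genes, not replicates, and do not depend on the scale. Of the non-ATPases of the base, PSMD1, a large scaffold, had 3.74 and 16.0 FPKM (-2.07). PSMD2, its fellow scaffold, was level at 24.0 and 26.3 FPKM (-0.13), and PSMD4, a receptor for ubiquitin chains, was level at 22.6 and 18.2 FPKM (0.31).

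Lid mRNAs, which encode the deubiquitinating module, were lower in sum in the IMP1 precipitate, at 108 FPKM against 209, with a median log2 ratio of -1.23 that was -0.44 on the median scale and 0.64 on the equal-sum scale. PSMD14, the deubiquitinase that removes ubiquitin chains, had 7.76 and 30.3 FPKM (-1.95). PSMD12 had 7.50 and 30.1 FPKM (-1.99). PSMD11, whose level is known to set proteasome assembly in stem cells, had 12.9 and 36.2 FPKM (-1.48). PSMD14 and PSMD12 had like values in each precipitate and the lowest ratios of the lid. PSMD7, the inactive partner of PSMD14, had 16.2 and 43.2 FPKM (-1.41), and PSMD6 had 11.4 and 23.6 FPKM (-1.05). The remaining lid mRNAs were level or higher. PSMD8 had 23.1 and 22.5 FPKM (0.04), PSMD13 had 12.9 and 13.1 FPKM (-0.02), and PSMD3 had 15.9 and 10.5 FPKM (0.60). PSMD14 over PSMD7 was 0.480 in the IMP1 precipitate and 0.702 in the IgG precipitate, and base over lid was 1.46 and 1.08, so neither ratio differed by as much as 2-fold.

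Assembly chaperones, which guide subunits into place and leave the finished particle, held both ends of the range, with a median log2 ratio of 0.04 that was 0.83, 1.91 and 0.61 on the other scales. PSMG1 and PSMG2 work as a pair in building the alpha ring. PSMG1 had 11.4 FPKM in the IMP1 precipitate and 1.10 in the IgG precipitate (3.27), while PSMG2 was level at 14.3 and 13.9 FPKM (0.04). PSMG1 over PSMG2 was therefore 0.801 with IMP1 and 0.0794 with IgG, a 10.1-fold gap between partners. Of the other alpha ring pair, PSMG3 had 11.2 and 18.9 FPKM (-0.75), and PSMG4 had 1.95 FPKM in the IMP1 precipitate and was listed at 0 with IgG, so no fold is given for it. Of the 3021 genes within 1.5-fold of the PSMG4 value in the IMP1 precipitate, 32.5% were listed at 0 with IgG, and for PSMG1 this was 9.34% of 1531 genes.

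The base chaperones each bind a pair of ATPases. PSMD9, the chaperone of PSMC3 and PSMC6, had 7.04 and 0.765 FPKM (3.05), and 13.8% of the 2064 genes near its IMP1 value were listed at 0 with IgG. PSMD10 (gankyrin), the chaperone of PSMC4 and PSMC5, had 4.16 and 31.0 FPKM (-2.87), the lowest ratio of all members on the deposited scale. PSMD5, the chaperone of PSMC1 and PSMC2, had 6.79 and 8.57 FPKM (-0.33). The base chaperones thus lay between 4.16 and 7.04 FPKM in the IMP1 precipitate and between 0.765 and 31.0 in the IgG precipitate. The client pairs did not share 1 level either. PSMC4 over PSMC5 was 0.497 in the IMP1 precipitate and 3.57 in the IgG precipitate, a 7.18-fold gap, and PSMC3 over PSMC6 was 1.62 and 0.306, a 5.30-fold gap in the other direction. PSMC1 over PSMC2 was 2.18 and 1.79, nearly the same.

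A listed locus in the table is a merged stretch that can hold several genes, whose reads may not have been fully separated. The 24 members alone in their locus had 4 higher and 9 lower, with a median log2 ratio of 0.02 as deposited. The 23 that share a locus had 3 higher and 12 lower, with a median of -1.05. The same split was not made over all genes, so whether this difference is particular to the proteasome is not known. Every immunoproteasome gene and every activator shared a locus, whereas every core beta gene was alone. For these classes, class and locus sharing cannot be told apart. Among the genes with large gaps, PSMG1 (chromosome 21, 40546695 to 40555777, hg19) and PSMD10 (chromosome X, 107327437 to 107334848) were alone. PSMC5 (chromosome 17, 61896793 to 61909379) shared its locus with FTSJ3, a gene at 1.85 and 3.30 FPKM, and PSME1 (chromosome 14, 24605367 to 24610797) shared its locus with EMC9, at 4.28 and 0 FPKM.

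The remaining name matches were low. PSMC3IP, a meiotic recombination factor and not a proteasome gene, had 4.05 FPKM in the IMP1 precipitate and was listed at 0 with IgG, and PSMD5-AS1 had 3.28 FPKM and was likewise listed at 0. PSMD6-AS2 was listed at 0 in the IMP1 precipitate and at 1.13 FPKM with IgG. PSMG3-AS1 had 0.230 and 0.554 FPKM. These antisense genes share a locus with PSMD5, PSMD6 and PSMG3, and without the strand their reads and those of the partner cannot be told apart.

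Genes that work with the proteasome but carry other names gave a mixed picture. Of 10 proteasome-associated genes, 3 were more than 2-fold higher and 4 lower, with a median log2 ratio of -0.27 that was 1.59 on the equal-sum scale. ADRM1, a ubiquitin receptor of the base, had 21.8 and 5.28 FPKM (2.02). SHFM1, the smallest lid subunit, had 19.9 and 4.00 FPKM (2.28), which placed it far from the other lid mRNAs. POMP, the maturation factor of the beta ring, was level at 12.7 and 14.4 FPKM (-0.18). PAAF1, an inhibitor of regulatory particle docking, had 5.60 FPKM and was listed at 0 with IgG, and UBLCP1, a proteasome phosphatase, was lowest at 1.91 and 10.5 FPKM (-2.40).

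The transcription factor NFE2L1, which raises proteasome gene transcription when the proteasome is blocked, had 35.3 and 100.2 FPKM (-1.50), and DDI2, the protease that activates it, had 1.33 FPKM against 0.000195. Over the 4 genes of that list 1 was higher and 2 were lower, with a median of -0.57 that was 1.27 on the equal-sum scale. Ubiquitin and its activating enzymes were mostly level, with 0 of 6 higher and 1 lower and a median of -0.23 that was 1.65 on the equal-sum scale. UBA6, an activating enzyme, was lowest at 0.714 and 16.8 FPKM (-4.38), and the ubiquitin fusion gene RPS27A was highest at 168 and 90.1 FPKM (0.90). Substrate shuttles and the segregase had 3 of 10 higher and 1 lower, with a median of -0.10 that was 1.76 on the equal-sum scale. UBQLN2, a shuttle, had 3.38 and 10.1 FPKM (-1.56), and FAF1, a cofactor of the segregase, had 5.52 FPKM and was listed at 0 with IgG.

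Other multi-subunit complexes were set beside the proteasome as a yardstick. The CCT chaperonin had 1 of 8 higher and 2 lower, with a median log2 ratio of -0.40. The COP9 signalosome, whose subunits are related to those of the lid, had 3 of 9 higher and 4 lower, with a median of -0.80. The eIF3 translation factor had 2 of 13 higher and 3 lower, with a median of 0.46. On the equal-sum scale these medians were 1.47, 1.05 and 2.33. A wide spread among subunits of 1 complex was therefore not confined to the proteasome: CCT8 had 14.4 and 67.2 FPKM (-2.22) and CCT3 had 22.3 and 9.02 FPKM (1.30), COPS8 had 9.53 and 26.6 FPKM (-1.47) and COPS6 had 12.1 and 1.17 FPKM (3.27), and EIF3E had 49.2 and 175.8 FPKM (-1.84) and EIF3L had 55.9 and 16.4 FPKM (1.76).

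**Figure D3:**
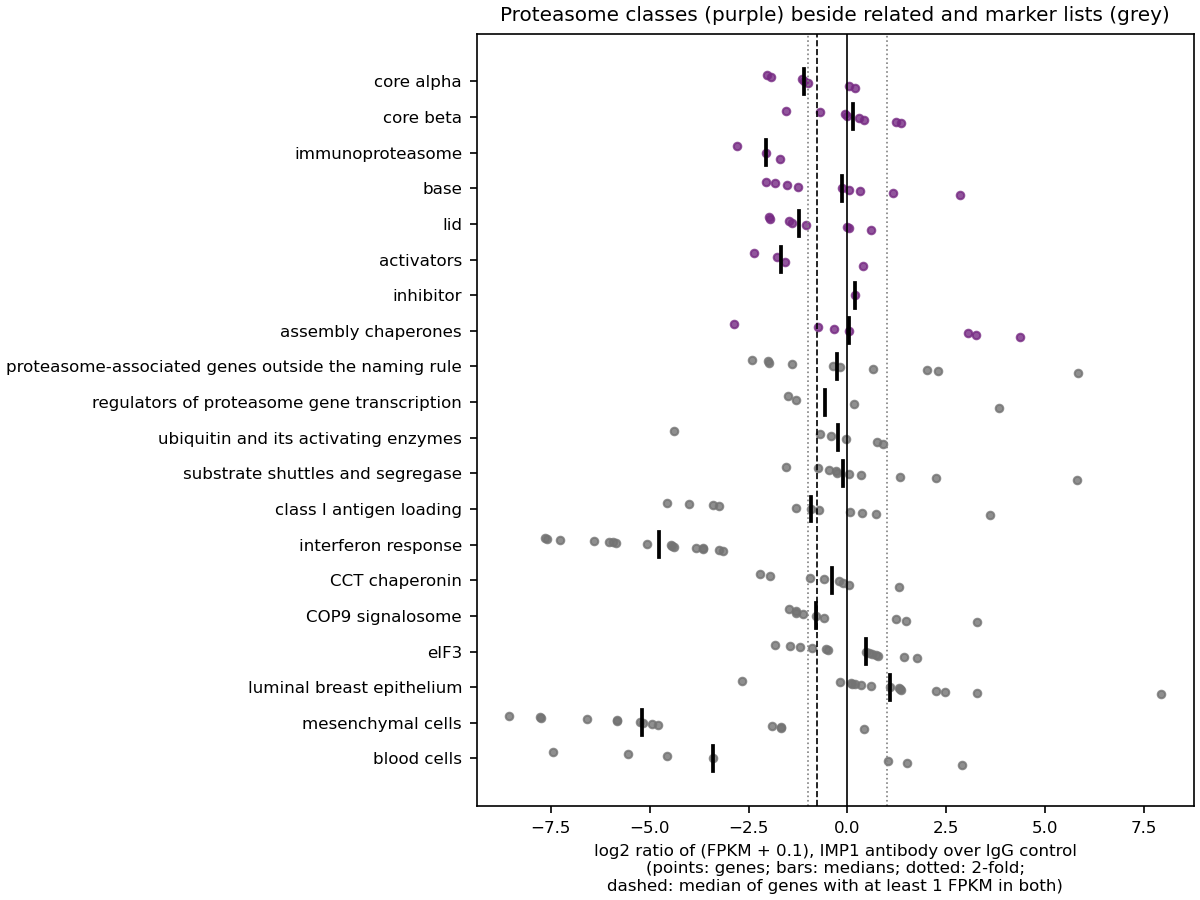
Log2 ratio of FPKM + 0.1, IMP1 over IgG, for each gene (points) and its class median (bars) in the proteasome classes, the related lists and the marker lists, with dotted lines at 2-fold and a dashed line at the median of genes at 1 FPKM or more in both precipitates (-0.78), 1 library each. The immunoproteasome median (-2.06) lies between the core class medians and that of the interferon response genes (-4.76) as deposited. Single genes overlap, with PSMB10 at -1.70 and the core gene PSMA4 at -2.03. The core alpha, lid and activator medians change sign on the equal-sum scale.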

How the data were processed

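RNA co-precipitated from T47D cells with anti-IMP1 antibody or normal IgG was measured in 2 libraries, 1 per group. The authors deposited FPKM values per gene, computed from reads mapped to hg19 per the submitters' processing notes. The aligner, the FPKM software, the annotation and the counting strand are not given in the sources used here, and the depth is unknown, so no counting interval or detection limit was derived. FPKM divides by transcript length and by mapped fragments, but does not correct for a few abundant RNAs that differ between precipitates. The authors' own ratio, p-value and q-value columns, and 3 tables holding subsets of the same genes, were not used. Start coordinates were shifted by 1 to count from 1.

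Values at or below 1e-05 were taken as 0. Log2 ratios of FPKM + 0.1 were formed, IMP1 antibody over IgG control, and a ratio of at least 2-fold was counted as higher or lower. No test was possible with 1 library per group. Levels between genes were compared per length, as FPKM. Alternatives were pseudocounts of 1 and 0.01, bounds of 1.5-fold and 4-fold, a minimum of 1 FPKM in both libraries and 3 other scales (the median ratio, equal sums, and equal sums without the 50 highest genes). Alternatives added after seeing the data were a minimum of 10 FPKM, leaving out members that share a locus or adding the second entries, and, for class levels, the median in place of the sum and PSMB11 left out. Every proteasome gene matched by the rule is named. Of each related list the genes with the lowest and highest ratio are named, with ADRM1, SHFM1, POMP and B2M. A gene that this choice would name in 1 list, and a marker, are not reported here. The members, lists and motifs were chosen with earlier results of these data known, and the motifs were kept from a longer set looked at first. PSMA8 was not analysed here, nor were promoters of 6 members. Python 3.11.15, pandas 2.3.3, numpy 2.4.6 and matplotlib 3.10.9 were used, and the computation was tested on simulated data.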

Additional observations from a re-analysis of the deposited data

How the results depend on the processing

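No paired analysis was possible because each group had 1 library, with no test and none to leave out. Given here are medians that crossed 2-fold (1 on the log2 scale) in either direction or turned from beyond it, and member counts that changed by over 1.5 times. No pseudocount did either, though a pseudocount of 1 took the immunoproteasome median from -2.06 to -1.38, that of all members from -0.69 to -0.30 and the share of all genes counted as higher from 39.9% to 17.4%. For the counts of members higher and lower (7 and 21), the median scale gave 12 and 11, equal sums gave 25 and 2, a 4-fold bound gave 4 and 6, and a minimum of 10 FPKM gave 2 and 12. Of genes at 1 FPKM or more in both libraries, 25.0% and 24.9% were higher and lower on the median scale, 51.6% and 7.96% with equal sums, and 3.27% and 20.3% at 4-fold. The 43 members at that level had 23.3% and 20.9%, 53.5% and 2.33%, and 4.65% and 11.6% in the same order. Over all genes, without this minimum, 26.1% and 17.3% were higher and lower at 4-fold, beside the 4 and 6 of all 47 members. Equal sums turned the medians of core alpha (0.76), lid (0.64) and activators (0.19). They moved core beta to 2.02, immunoproteasome to -0.31, base to 1.74, the inhibitor to 2.06 and assembly chaperones to 1.91. Among the related lists they moved the proteasome-associated genes to 1.59, transcription regulators to 1.27, ubiquitin to 1.65, shuttles to 1.76, CCT to 1.47, COP9 to 1.05 and eIF3 to 2.33. The median scale moved core alpha to -0.32, lid to -0.44, activators to -0.89 and eIF3 to 1.25. Sums without the 50 highest genes moved core alpha to -0.54, lid to -0.66 and eIF3 to 1.03. Keeping members alone in their locus moved lid to -0.72, and a minimum of 1 FPKM in both moved the transcription regulators to -1.29. No immunoproteasome gene or activator was alone in its locus, so these classes have no value for that alternative. The other 104 values met neither condition, but 14 of them changed sign within 2-fold, among them class I antigen loading with equal sums (-0.92 to 0.95) and base on the median scale (-0.13 to 0.66). Depth is unknown, so values near 0 could not be given a limit.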
